A study of Homo sapiens with 8 samples.

Results

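MCF10A cells that had received siRNA against the kinases LATS1 and LATS2 were compared with MCF10A cells that had received a control siRNA, with 2 libraries of messenger RNA in each group, called siLATS and siControl here. The comparison took 4 of the 8 libraries of the study; the other 4 came from cells given siRNA against LATS1/2 and p53 together (siLATS_p53) or against p53 alone (sip53). All groups were the same cell line and differed, as far as the labels say, in the siRNA alone. The libraries numbered 1 and 2 came from separate batches of cells, so that each siLATS library has a siControl library from its own batch. MCF10A is a human breast epithelial line that grows without limit but does not form tumours, and it carries basal traits. The siRNAs lowered their targets only in part, and their sequences are not analysed here.

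Of 29991 entries in the deposited table, 12315 lay above the floor of the values in at least 2 of the 8 libraries and were tested. The values are log2 expression levels in which every low value had been set to 5 before deposit, so that a difference of 1 is a 2-fold change and a change of a gene near the floor is understated. Differences are siLATS minus siControl, given with the standard error (SE) of a limma fit that holds the batch of cells as a block, and a gene is said to have risen or fallen where its Benjamini-Hochberg adjusted p over all 12315 entries was under 0.05. The SE and p-values rest on the spread that group and batch leave over in all 8 libraries, those with p53 siRNA included. With 2 batches this spread covers only 2 cultures of one line. The number of reads behind the values is unknown, and the spacing of the low values put it at 37.1 and 22.4 M for siLATS and 12.1 and 25.8 M for siControl. The 7 basal epithelial markers checked were above the floor in all libraries, the 5 blood and endothelial markers were at the floor in all libraries, and of 7 fibroblast markers 5 were at the floor in all libraries. A wider list of 12 blood and endothelial genes had 3 that could be tested, and 0 of these passed limma's test with or without the block; 2 of the 3 were lower at an unadjusted p under 0.05 with the block and 0 without it.

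LATS1 and LATS2 are the terminal kinases of the Hippo pathway. They phosphorylate the transcriptional coactivators YAP and TAZ, which are then held in the cytoplasm or degraded. Unphosphorylated YAP and TAZ enter the nucleus and act through the DNA-binding TEAD proteins on genes such as CTGF and CYR61, and in breast epithelium they are known for roles in growth, adhesion and the balance of luminal and basal traits.

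Both targeted genes were lower in the siLATS libraries. The level of LATS1 was 7.93 and 8.10 in siLATS, against 9.54 and 9.64 in siControl. The level of LATS2 was 8.72 and 8.63 in siLATS, against 9.92 and 10.22 in siControl. The groups did not overlap for either gene, and the differences were -1.58 ± 0.11 for LATS1 (SE, adjusted p = 1.76e-07) and -1.39 ± 0.11 for LATS2 (adjusted p = 7.04e-07). In cells that also received p53 siRNA, a comparison that uses no library of the first, LATS1 fell by 1.97 and LATS2 by 1.09 on the log2 scale.

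In all, 3937 of the 12315 entries were called, which is 32%, with 1299 higher (10.5%) and 2638 lower (21.4%) in siLATS. Most changes were small: the median size among called entries was 0.419, and 2876 of the 3937 changed by under 1.5-fold. A change of at least 2-fold was seen in 194 entries that rose and 117 that fell. Without the batch block 948 entries passed (7.7%), all of them among the 3937, with 346 higher (2.81%) and 602 lower (4.89%). The count was 1040 without siLATS replicate 1, 1880 without siLATS replicate 2, 2416 without siControl replicate 1 and 2561 without siControl replicate 2. The share of called entries that were higher was 33.0% on the values as deposited and 51.8% (1768 higher and 1644 lower) when each library was rescaled to a common median, so that the balance between small rises and small falls depended on the scaling.

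Among genes with a mean above the median of the entries tested, called with and without the block and with no overlap between groups, CPA4 and KRT8 had the largest rises. CPA4, a secreted carboxypeptidase, was at 14.03 and 14.07 in siLATS, against 10.60 and 11.11 in siControl. Its difference was 3.20 ± 0.09 (SE, adjusted p = 7.21e-11), and it was 3.24 in the libraries with p53 siRNA. The simple epithelial keratin gene KRT8 was at 11.84 and 11.26 in siLATS, against 9.92 and 9.22 in siControl. In both genes the siLATS libraries were the higher ones in each batch and the groups did not overlap, as the choice required. KRT8 has many processed pseudogenes, so its level is uncertain. The remaining members of the 15 largest rises, each apart from siControl in both batches, were CCDC80 and THBS1 (secreted matrix proteins), CGN (the tight junction protein cingulin), F3 (tissue factor, which starts coagulation), CD24 (a surface glycoprotein), ADM (the peptide hormone adrenomedullin), GPRC5A (an orphan receptor), NCEH1 (a cholesteryl ester hydrolase), SERPINB2 and SERPINB13 (protease inhibitors), PLK2 (a polo-like kinase), and TPM1 and TAGLN (actin-binding proteins). Their differences lay between 1.48 and 1.95 on the log2 scale.

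**Figure D1:**
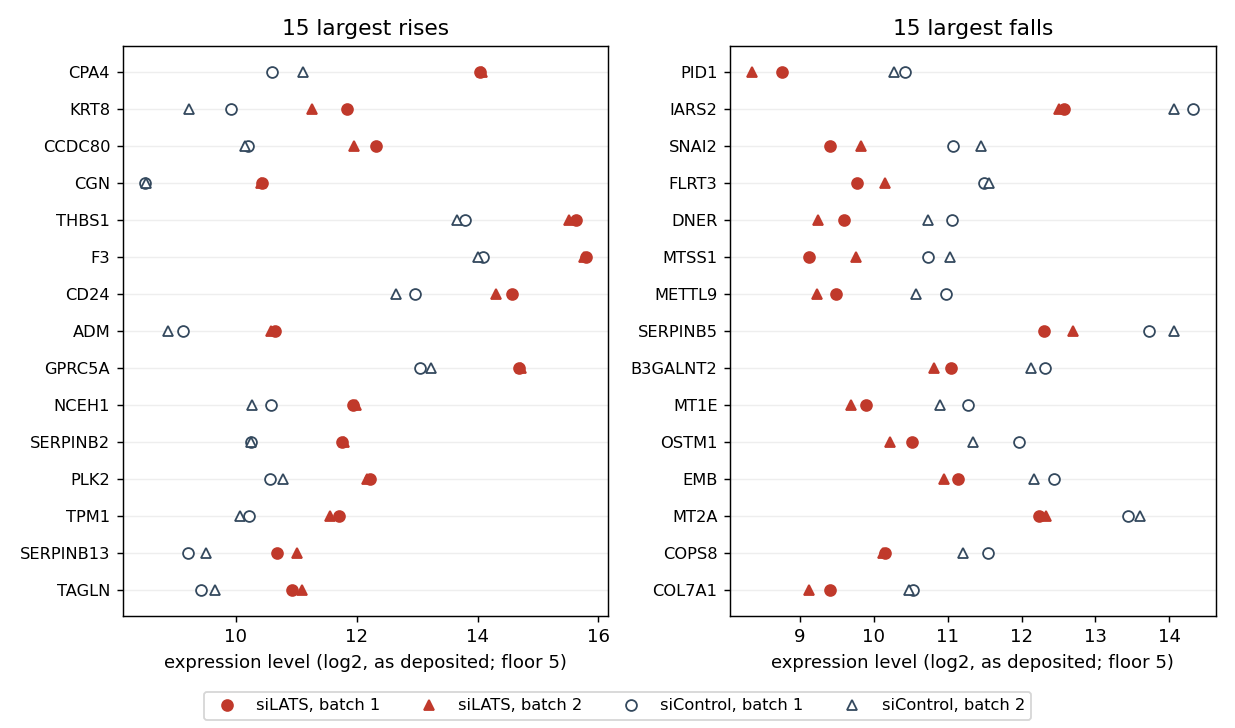
Levels of the 15 genes with the largest rises (left) and the 15 with the largest falls (right) among genes with a mean above the median that were called with and without the batch block. Only genes whose groups did not overlap were taken. The horizontal axis is the deposited log2 level, filled red symbols are siLATS libraries, open symbols are siControl libraries, circles are batch 1 and triangles batch 2. The red and open symbols of each gene do not overlap because of that choice. CPA4 was at 14.03 and 14.07 in siLATS, against 10.60 and 11.11 in siControl.

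Several genes with a mean below the median level also rose by a log2 difference of 1.75 or more. GJA5, the gap junction protein connexin 40, was at 11.52 and 10.91 in siLATS, against 8.22 and 7.47 in siControl. ADAMTS1, a secreted metalloprotease, was at 9.27 and 10.03 in siLATS, against 6.10 and 6.83 in siControl. Their differences were 3.37 ± 0.11 and 3.19 ± 0.16 (SE, adjusted p = 2.53e-10 and 1.31e-08), and in neither gene did the groups overlap. TMEM40, whose function is little known, rose by 2.42, the keratin gene KRT80 by 2.23 and TMEM139 by 1.75 on the log2 scale.

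The 15 largest falls chosen in the same way lay between 1.24 and 1.79 in size, and some genes with a mean below the median fell further. SNAI2, which encodes the transcription factor SLUG, was at 9.41 and 9.82 in siLATS, against 11.08 and 11.45 in siControl, a difference of -1.65 ± 0.08 (SE, adjusted p = 1.59e-08). GFPT2, an enzyme at the entry of the hexosamine pathway, was at 7.37 and 7.02 in siLATS, against 9.69 and 9.62 in siControl, a difference of -2.46 ± 0.12 (adjusted p = 1.07e-08). The siLATS libraries lay below both siControl libraries in each case. PID1 fell by 1.79, and IARS2, the mitochondrial isoleucyl-tRNA synthetase, fell by 1.66 on the log2 scale. FLRT3 (a membrane protein that binds neuronal guidance receptors), DNER (a transmembrane Notch ligand), MTSS1 (a regulator of actin and membranes), METTL9 (a methyltransferase), SERPINB5 (the protease inhibitor relative maspin), B3GALNT2 (a glycosyltransferase), OSTM1 (a lysosomal membrane protein), EMB (embigin), COPS8 (a COP9 signalosome subunit) and COL7A1 (the collagen of anchoring fibrils) fell by between 1.24 and 1.56. The metallothionein genes MT1E and MT2A, which bind metal ions, fell by 1.30 and 1.24, and MT1X by 1.39; these were the members of that family that could be tested, and their near-identical copies make the split of reads between them uncertain.

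Some genes were at the floor in 1 group, where a difference is only a lower bound. Of the called entries, both siControl libraries were at the floor for 47, and both siLATS libraries for 11. TMEM125 was at 6.60 and 6.26 in siLATS and at the floor in siControl, and PDGFRL at 6.62 and 6.04 in siLATS and at the floor in siControl. In the other direction, the neurotensin receptor gene NTSR1 was at the floor in siLATS and at 6.73 and 6.86 in siControl, and the transcription factor gene FOXL1 at the floor in siLATS and at 6.46 and 6.05 in siControl. The cytokine gene IL11 was at the floor in siLATS and at 5.70 and 6.35 in siControl, but was not called without siLATS replicate 2 or without siControl replicate 2. CHRNA9, an acetylcholine receptor subunit, was at the floor in siLATS and at 6.25 and 5.98 in siControl. It was also at the floor in siLATS_p53 and sip53, so it was tested only because of its siControl values.

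Targets of YAP and TAZ were examined through a 22-gene signature, of which LATS2 itself, a siRNA target, was left out. Of the 21 remaining genes, all tested, 17 rose, 1 fell and 3 did not pass, with a median difference of 0.761, against -0.0742 over all entries tested. The called share was 85.7%, beside 32% over all entries. The siLATS libraries were above both siControl libraries in 19 of the 21, against 17.1% of all entries. The 1 that fell, the surface nucleotidase gene NT5E (-0.23), was lost without the block (adjusted p = 0.465) and without any 1 of 7 libraries. Without the block 11 rose and 0 fell, and with single libraries left out between 12 and 15 rose. In sip53 cells 16 of the 21 rose and 0 fell, where 12.7% of all entries rose and 9.42% fell.

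The promoter is where TEAD proteins bind at several of these genes. The TEAD motif GGAATG, or its reverse complement CATTCC, was sought in RefSeq promoter sequences. These run from 250 bases before to 50 bases after the annotated start (GRCh38.p14). As examples, 3 promoters that hold the motif are shown. Each lies on the minus strand, is given 5′ to 3′ in the direction of transcription, and has the motif in capitals. The CTGF promoter (RefSeq symbol CCN2) is chr6:131951323-131951622, that of AMOTL2 is chr3:134374398-134374697, and that of NUAK2 is chr1:205321696-205321995. RefSeq lists another AMOTL2 promoter, chr3:134375368-134375667, which held 0 motifs and is not shown.
CTGF: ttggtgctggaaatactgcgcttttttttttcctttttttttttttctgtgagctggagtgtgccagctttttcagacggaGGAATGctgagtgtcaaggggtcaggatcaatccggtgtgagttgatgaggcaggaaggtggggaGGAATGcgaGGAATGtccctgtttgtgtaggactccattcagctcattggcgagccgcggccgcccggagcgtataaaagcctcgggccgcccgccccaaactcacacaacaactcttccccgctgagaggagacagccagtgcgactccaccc
AMOTL2: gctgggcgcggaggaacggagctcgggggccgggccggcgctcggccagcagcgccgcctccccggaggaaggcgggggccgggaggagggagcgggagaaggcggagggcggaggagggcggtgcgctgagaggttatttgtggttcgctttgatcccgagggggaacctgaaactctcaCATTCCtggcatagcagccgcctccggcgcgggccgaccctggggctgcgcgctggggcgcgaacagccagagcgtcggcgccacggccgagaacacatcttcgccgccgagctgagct
NUAK2: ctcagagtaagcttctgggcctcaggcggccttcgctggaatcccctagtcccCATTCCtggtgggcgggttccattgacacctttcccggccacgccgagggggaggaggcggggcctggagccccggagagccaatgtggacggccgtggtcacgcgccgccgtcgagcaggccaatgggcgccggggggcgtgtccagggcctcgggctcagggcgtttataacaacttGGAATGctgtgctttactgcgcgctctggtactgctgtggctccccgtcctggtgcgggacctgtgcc
The 3 motifs of CTGF begin 169, 104 and 95 bases before the start, that of AMOTL2 begins 69 bases before it, and the 2 of NUAK2 begin 197 and 18 bases before it. None overlaps another. Among 35116 RefSeq promoters, 14.0% held the motif on either strand and 0.128% held 3 or more. A promoter was found for 15 of the 21 signature genes, of which 8 held the motif in at least 1 listed promoter, too few matched for a share to be compared with that of all promoters. The 3 genes shown had the largest differences of these 8, so they do not stand for all genes with the motif. The others differed by 0.92 (TGFB2), 0.76 (ANKRD1), 0.24 (PTPN14), 0.23 (AXL) and 0.15 (FOXF2) on the log2 scale. F3, IGFBP3 and CCDC80 had no match in this window. A match is a run of letters and not a measured binding site.

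CTGF, a secreted matricellular protein and a standard readout of YAP and TAZ, was at 9.59 and 9.57 in siLATS, against 8.46 and 8.45 in siControl. AMOTL2, an angiomotin relative that binds YAP, was at 12.47 and 12.25 in siLATS, against 10.99 and 11.11 in siControl. NUAK2, a kinase of the AMPK family, was at 10.74 and 10.93 in siLATS, against 9.51 and 10.12 in siControl. In these genes both siLATS libraries exceeded both siControl libraries, and the differences were 1.12 ± 0.12 for CTGF (SE, adjusted p = 1.41e-05), 1.31 ± 0.08 for AMOTL2 (adjusted p = 7.85e-08) and 1.02 ± 0.11 for NUAK2 (adjusted p = 9.2e-06). NUAK2 did not pass without the block (adjusted p = 0.059).

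The 3 largest rises of the signature were those of CCDC80, IGFBP3 and F3. CCDC80 rose by 1.95 ± 0.12, IGFBP3, a carrier of insulin-like growth factors, by 1.95 ± 0.19 and F3 by 1.73 ± 0.09 (SE). IGFBP3 was at 8.38 and 7.38 in siLATS, against 6.09 and 5.78 in siControl, with no overlap. CRIM1, a membrane protein that binds bone morphogenetic proteins, rose by 1.02, CYR61, a matricellular relative of CTGF, by 0.97, and TGFB2, a transforming growth factor, by 0.92 on the log2 scale. ANKRD1 was at 6.24 and 5.28 in siLATS and at the floor in siControl; its call was lost without the block (adjusted p = 0.155), without siLATS replicate 1 and without either siControl library, and among other libraries without either siLATS_p53 library.

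The Hippo pathway's own components split. Of 37 kinases and adaptors tested 10 rose and 7 fell (45.9% called, beside 32% over all entries), and after rescaling 14 rose and 5 fell. Among the upstream regulators WWC1 (the scaffold KIBRA) rose by 0.65, FAT1 (an atypical cadherin) by 0.57, LLGL2 (a polarity protein) by 0.65 and DLG1 (another polarity scaffold) by 0.55 on the log2 scale. MOB1B, a cofactor that activates LATS kinases, fell by 0.71, and the kinase gene MAP4K4, which can phosphorylate LATS, by 0.71 as well. YAP1 itself was at 12.07 and 12.23 in siLATS, against 12.54 and 12.63 in siControl, a fall by 0.43 (adjusted p = 3.8e-04) that did not pass without the block (adjusted p = 0.061). Of its DNA-binding partners TEAD1 rose by 0.53 and TEAD2 fell by 0.63, a call lost without siLATS replicate 1. VGLL3, which competes for TEAD proteins, rose by 0.78.

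Genes of the matrix and of its turnover moved in both directions. Of 45 extracellular matrix genes 17 rose and 11 fell, and of 36 matrix proteases and inhibitors 15 rose and 8 fell. The called shares were 62.2% and 63.9%, beside 32% over all entries, of which 10.5% rose and 21.4% fell. FBN1 (fibrillin, of microfibrils) rose by 1.72, MFAP5 (a microfibril-associated protein) by 1.36 and COL12A1 (a fibril-associated collagen) by 1.39 on the log2 scale. ST14, the membrane serine protease matriptase, rose by 0.75, while TIMP1, an inhibitor of metalloproteases, fell by 0.76. Clade B serpins, intracellular and secreted protease inhibitors, split with SERPINB2 (1.53), SERPINB7 (1.53) and SERPINB13 (1.49) up and SERPINB5 (-1.40) down, for 3 up and 5 down of 9 tested. The called share of these 9 was 88.9%.

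Of 16 integrin genes tested, whose products bind the matrix, 5 fell and 3 rose. ITGA10 was at 7.59 and 6.74 in siLATS, against 9.47 and 8.59 in siControl, a difference of -1.86 ± 0.16 (SE, adjusted p = 1.24e-06). ITGA2, a collagen receptor subunit, fell by 0.89 and ITGA5, the fibronectin receptor subunit, by 0.54, while ITGB2, the beta subunit of leukocyte integrins, rose by 1.32. Without the block ITGA5 (adjusted p = 0.179) and ITGB2 (adjusted p = 0.0625) did not pass. Of 59 actomyosin and stress fibre genes 13 rose and 11 fell (19 and 8 after rescaling), with MYL9, the myosin light chain of smooth muscle and non-muscle cells, up by 1.41 and LIMA1, an actin-binding protein, up by 0.60. The called share of these 59 against siControl was 40.7%, beside 32% over all entries. In sip53 cells 28 of these 59 rose and 0 fell, where 12.7% of all entries rose and 9.42% fell.

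Most called junction genes were higher in siLATS. Of 23 tight junction genes 12 rose and 2 fell, and of 24 adherens junction and catenin genes 10 rose and 1 fell. The called shares were 60.9% and 45.8%, beside 32% over all entries, of which 10.5% rose and 21.4% fell. CGN was at 10.44 and 10.42 in siLATS, against 8.49 and 8.52 in siControl, a difference of 1.93 ± 0.09 (SE, adjusted p = 8.41e-09) with no overlap between groups. The claudins CLDN1 and CLDN7, which seal tight junctions, rose by 0.92 and 0.91, and CDH1, which encodes E-cadherin, by 0.61 on the log2 scale. EPCAM, an epithelial adhesion molecule, rose by 0.64 and PVRL2, a nectin, by 0.53, while PVRL1, another nectin, fell by 0.85 and was lost without the block (adjusted p = 0.0926). Without the block the counts were 4 up and 0 down for tight junctions and 5 up and 0 down for adherens junctions, and 5 and 6 rose without siLATS replicate 1. Of 19 desmosome and hemidesmosome genes 1 rose and 6 fell, among them the desmosomal cadherin gene DSC3 (-0.67) and PERP (-0.67), a desmosome component. The called share of the 19, 36.8%, was near the 32% of all entries.

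Several markers of luminal breast epithelium rose and several markers of basal epithelium fell. Of 10 luminal markers tested 6 rose and 0 fell, with a median difference of 0.558, and of 16 basal markers 2 rose and 9 fell, with a median of -0.241. In bulk RNA, fewer cells of a type and less RNA per cell cannot be told apart. CD24 was at 14.56 and 14.30 in siLATS, against 12.97 and 12.65 in siControl, and ERBB3, a receptor of the EGF receptor family, at 10.31 and 9.98 in siLATS, against 8.93 and 8.77 in siControl. Neither gene overlapped between groups, and the differences were 1.62 ± 0.07 and 1.29 ± 0.10 (SE, adjusted p = 7.74e-09 and 4.08e-07).

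Transcription factors that define luminal cells were checked one by one. ESR1, the oestrogen receptor gene, was at 5.75 and 6.26 in siLATS, against the floor and 5.15 in siControl, and GATA3, a luminal transcription factor gene, at 8.14 and 8.01 in siLATS, against 7.77 and 7.54 in siControl. Both passed with the block and were lost without it (adjusted p = 0.0841 for ESR1 and 0.15 for GATA3); both calls were also lost without either siLATS library or siControl replicate 2, and that of GATA3 without siControl replicate 1. The progesterone receptor gene PGR and the keratin gene KRT19 were at the floor in all 8 libraries. On the basal side KRT14 was at 12.37 and 13.19 in siLATS, against 12.97 and 13.83 in siControl. Here the batches differed by more than the treatment, so that the groups overlapped, while within each batch the siLATS library was lower (-0.62 ± 0.07, SE). KRT5, the partner keratin of KRT14, fell by 0.44, EGFR by 0.29 and S100A2, a calcium-binding protein of basal cells, by 0.74, and the cadherin gene CDH3 rose by 0.36. The calls of KRT5, EGFR and CDH3 were lost without siLATS replicate 1. Without the block 0 of the 16 basal markers passed limma's test, with 1 higher and 2 lower at an unadjusted p under 0.05, and without siLATS replicate 1 there were 0 rises and 3 falls.

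**Figure D2:**
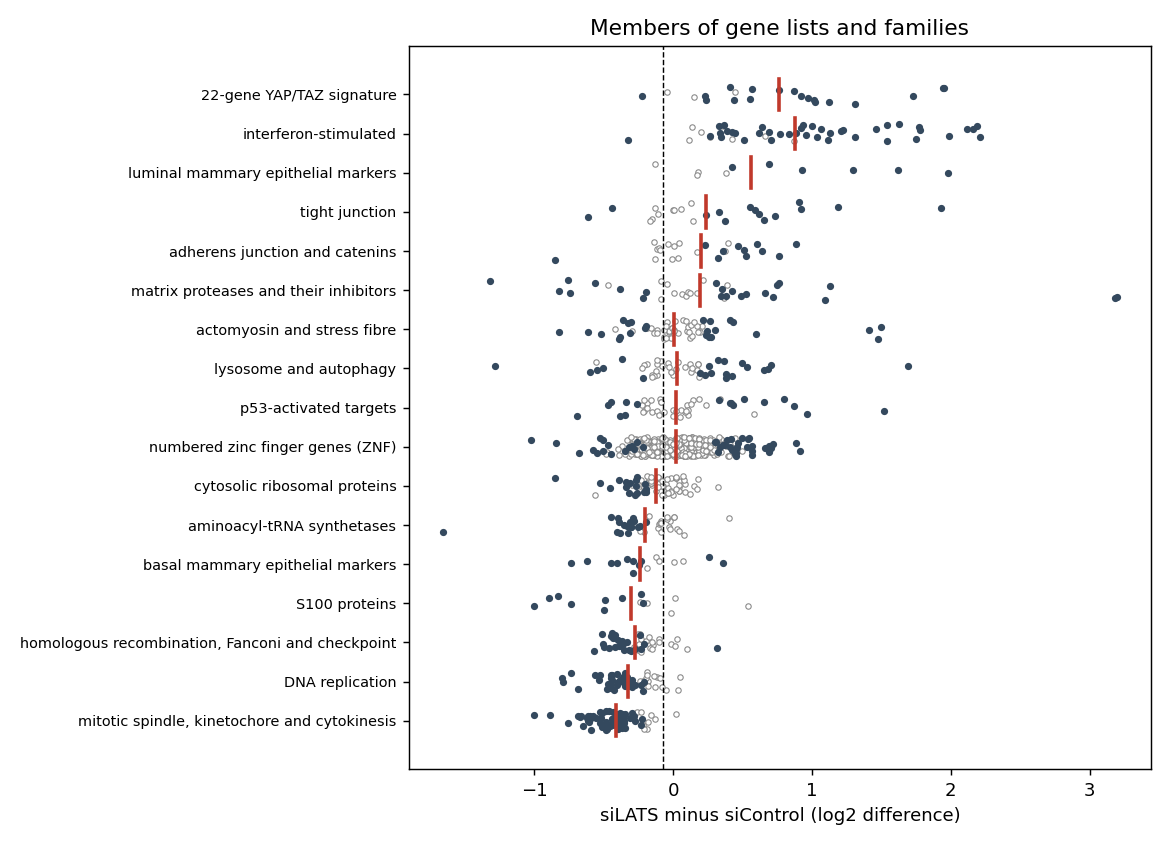
Differences between siLATS and siControl for the members of 17 gene lists and families. The horizontal axis is the log2 difference, filled points are called genes, open points are not called, red bars are medians and the dashed line is the median of all entries, -0.0742. The YAP/TAZ signature (median 0.761) and the interferon-stimulated genes (0.877) lie to the right, and the DNA replication (-0.328) and mitotic genes (-0.412) to the left.

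Most genes of cell division fell by a small amount. Of 75 genes of the mitotic spindle, kinetochore and cytokinesis 66 fell and 0 rose, of 56 DNA replication genes 38 fell and 0 rose, and of 45 genes of homologous recombination, the Fanconi pathway and checkpoints 25 fell and 1 rose. The called shares were 88.0%, 67.9% and 57.8%, beside 32% over all entries. The falls were small, with medians of -0.412, -0.328 and -0.274, against -0.0742 over all entries. Both siLATS libraries lay below both siControl libraries in 71 of the 75 mitotic and 45 of the 56 replication genes, against 34.8% of all entries. After rescaling 61, 27 and 15 genes fell, and without the block 32, 12 and 8 did. With rescaling and no block together 9, 9 and 1 fell, and with the siLATS and siControl libraries alone 14, 9 and 1 fell. Without siLATS replicate 1 the medians were -0.364, -0.327 and -0.234.

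The mitotic genes with the smallest p-values were NCAPG, a condensin subunit, and CDC25B, the phosphatase that activates mitotic cyclin-dependent kinases. NCAPG was at 10.76 and 10.78 in siLATS, against 11.40 and 11.33 in siControl, and CDC25B at 12.39 and 12.49 in siLATS, against 12.99 and 13.09 in siControl. The siLATS libraries were the lower ones in both genes, and the differences were -0.60 ± 0.07 and -0.61 ± 0.07 (SE, adjusted p = 2.18e-05 and 2.68e-05). DEPDC1 and DLGAP5, proteins of mitotic cells, fell by 0.88 and 0.67 on the log2 scale. Among replication genes POLA2, a subunit of the primase polymerase, fell by 0.79, GINS2, part of the replicative helicase, by 0.80, MCM6, another helicase subunit, by 0.53, and TIMELESS, a fork protection factor, by 0.53. CHEK1, the checkpoint kinase, fell by 0.57 and FANCI, a Fanconi protein, by 0.51.

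Cell cycle regulators were mixed. Of 40 cyclins, kinases and inhibitors 16 fell and 2 rose (45.0% called), where 21.4% of all entries fell and 10.5% rose. CCND2, cyclin D2, was at 11.66 and 11.57 in siLATS, against 10.82 and 10.69 in siControl (0.86 ± 0.08, SE, adjusted p = 2.91e-06). CCNA1, the cyclin A of the germ line, fell by 1.39 and RBL1, a pocket protein that binds E2F factors, by 0.53. The D-cyclin partner CDK6 fell by 0.84, a call lost without the block (adjusted p = 0.0616). CDKN1A, the p53 target that encodes p21, was at 12.88 and 13.07 in siLATS, against 12.29 and 12.83 in siControl. The groups did not overlap, but the batches differed in size (0.42 ± 0.09, SE, adjusted p = 0.00218), and the call was lost without the block (adjusted p = 0.224), without siControl replicate 1 and without siLATS replicate 1. Of 47 genes known to be activated by p53, 10 rose and 7 fell (13 and 3 after rescaling), with a median of 0.0177. Their called share was 36.2%, beside 32% over all entries, and PLK2 (1.52), GADD45A (0.87) and DRAM1 (0.66) had rises of at least 0.5.

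Immediate early genes, which growth factors induce within minutes, included 2 of the clearest falls. The immediate early transcription factor gene EGR1 was at 8.98 and 9.07 in siLATS, against 10.81 and 10.74 in siControl. FOS was at 8.18 and 8.42 in siLATS, against 9.98 and 9.80 in siControl. The groups were well apart, with differences of -1.76 ± 0.10 and -1.60 ± 0.11 (SE, adjusted p = 2.3e-08 and 2.89e-07). Of 23 immediate early genes 9 fell and 4 rose, with ATF3 (1.09), a stress-induced factor, among those that rose. The called share was 56.5%, beside 32% over all entries, of which 21.4% fell and 10.5% rose. DUSP6, a phosphatase that ERK signalling induces and that acts on ERK, fell by 0.90. Among ligands of the EGF receptor family EREG (epiregulin) fell by 1.21, AREG (amphiregulin) fell by 0.73 and NRG1 (neuregulin) rose by 0.95, and the receptor ERBB3 rose; the calls of AREG (adjusted p = 0.0765) and NRG1 (adjusted p = 0.123) were lost without the block, and that of AREG without either siLATS library.

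Genes of other signalling pathways moved in both directions. Of 35 WNT ligands, receptors and modulators 6 rose and 5 fell (8 and 4 after rescaling), and of 35 ligands, receptors and SMADs of the TGF-beta and BMP pathways 7 rose and 10 fell (8 and 8 after rescaling). The called shares were 31.4% and 48.6%, beside 32% over all entries, so the WNT list was near the share of all. The Wnt inhibitor gene DKK1 rose by 1.14 on the log2 scale. Of the Wnt receptor genes FZD2 rose by 1.30 and FZD1 fell by 0.75, and RNF43, which removes such receptors from the surface, rose by 0.57. INHBA, a subunit of activin, fell by 1.15, ID1, a target of bone morphogenetic proteins, by 1.03, and FSTL1, a secreted glycoprotein, rose by 0.99. SEMA7A, a membrane-anchored semaphorin, was at 9.86 and 9.82 in siLATS, against 7.97 and 8.42 in siControl (1.64 ± 0.12, SE, adjusted p = 4.85e-07). Of 29 epithelial cytokines and related genes 12 fell and 6 rose (62.1% called, beside 32% over all entries). CSF3 (granulocyte colony-stimulating factor) was at 12.50 and 10.91 in siLATS, against 13.70 and 12.75 in siControl. CXCL16, a membrane-bound chemokine, rose by 1.23. Both siLATS libraries were below both siControl libraries for CSF3, but the batches also differed, and the call was lost without the block (adjusted p = 0.143), as were those of FZD2 (0.107) and INHBA (0.216).

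Interferon-stimulated genes were mostly higher in siLATS, but mainly in 1 batch of cells. Of 48 tested 39 rose and 1 fell with the block, and without it limma called 0 of the 48, with 10 higher and 0 lower at an unadjusted p under 0.05. Over all entries 32% were called with the block and 7.7% without it. The gene that fell, IFI16 (-0.33), lost its call without siLATS replicate 2 and without siControl replicate 2. The median difference was 1.43 in batch 1 and 0.182 in batch 2, and the difference was larger in batch 1 for all 48. At least a 2-fold rise was seen in 30 genes in batch 1 and in 1 gene in batch 2. Without siLATS replicate 1 there were 6 rises, without siControl replicate 1 there were 9, and without siLATS replicate 2 there were 38.

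The members show the same split. IFIT1, which binds viral RNA, was at 9.42 in siLATS replicate 1 and at the floor in siLATS replicate 2 and in both siControl libraries. RSAD2 (viperin) was at 9.23 and ISG15, a ubiquitin-like modifier, at 8.54 in siLATS replicate 1, and both were at the floor in siLATS replicate 2 and in siControl. IFIT3 was above the floor throughout, at 9.70 and 7.04 in siLATS, against 6.83 and 5.94 in siControl, and IFIH1, a sensor of double-stranded RNA, was at 10.06 and 9.30 in siLATS, against 9.02 and 8.59 in siControl. IFIT3 and IFIH1 were therefore higher in siLATS in each batch, and the difference was larger in batch 1. The calls of IFIT1, RSAD2 and ISG15 were lost without siLATS replicate 1, siControl replicate 1 or either siLATS_p53 library. The median level over the 48 genes was 9.75 and 7.94 in siLATS, 8.38 and 7.38 in siControl, 9.79 and 9.05 in siLATS_p53, and 8.96 and 7.76 in sip53. It was higher in batch 1 than in batch 2 in each of the 4 groups. With p53 siRNA it was higher in siLATS_p53 than in sip53 in both batches, at 9.79 against 8.96 and 9.05 against 7.76. In that comparison 35 of the 48 genes rose and 1 fell, with a median difference of 0.852, where 12.7% of all entries rose. The part of the batch in the rise against siControl was not tested beyond these values.

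**Figure D3:**
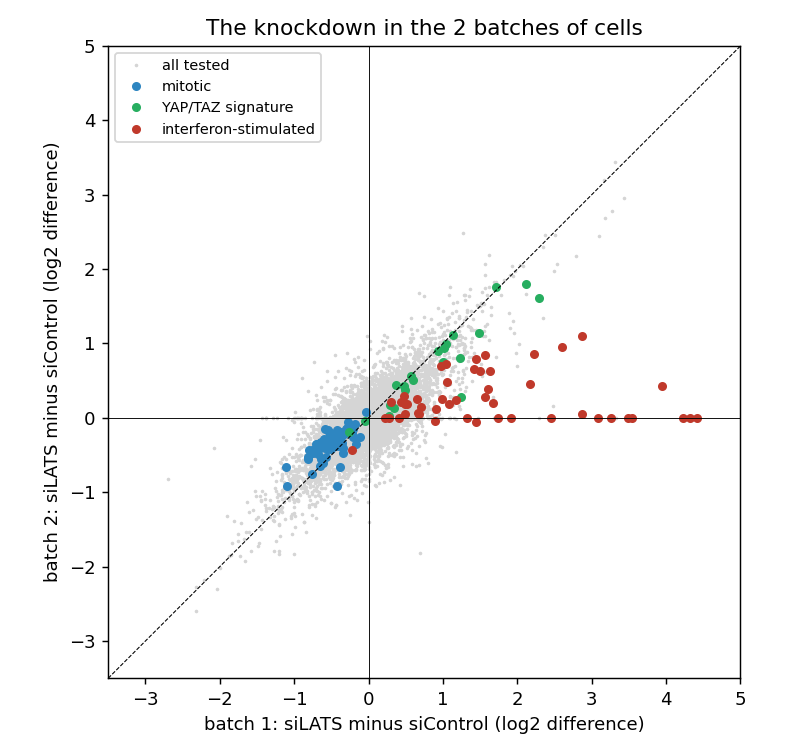
Difference between siLATS and siControl in batch 1 (horizontal axis) and in batch 2 (vertical axis), both on the log2 scale, for all entries (grey) and 3 gene lists in colour. The dashed line marks equal differences; the interferon-stimulated genes (red) lie below it, with medians of 1.43 in batch 1 and 0.182 in batch 2, while the YAP/TAZ signature (green, 0.937 and 0.566) and the mitotic genes (blue, -0.492 and -0.343) lie nearer to it.

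DCN, which encodes the matrix proteoglycan decorin and served as a fibroblast marker, also differed between batches. It was at 7.87 in siLATS replicate 1 and at the floor in siLATS replicate 2, against 9.86 and 7.02 in siControl (-2.01 ± 0.17, SE, adjusted p = 1.24e-06). In each batch the siLATS library was the lower one, and in batch 2 the difference is a lower bound. The batches were further apart than the treatments, and the call was lost without the block (adjusted p = 0.50). The summed linear level of the 7 fibroblast markers was 449 and 175 in siLATS, against 1089 and 325 in siControl, and 5 of the 7 were at the floor in all libraries.

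In several housekeeping families the counts depended on the scaling. Of 76 cytosolic ribosomal protein genes 17 fell and 0 rose, but after rescaling 7 fell and 2 rose; the share that fell, 22.4%, lay beside 21.4% over all entries. Of 62 splicing factors 20 fell and 1 rose (33.9% called), and after rescaling 8 fell and 4 rose. Of 42 proteasome subunits 9 fell and 4 rose (31.0% called), a balance that turned to 1 fall and 5 rises after rescaling. Aminoacyl-tRNA synthetases, which charge transfer RNAs, had a called share of 44.7% and fell in 17 of 38 cases (12 after rescaling) and rose in 0 (1 after rescaling), with IARS2 far below the others. Of 14 S100 genes, 64.3% of them called, 9 fell and 0 rose (7 and 1 after rescaling), and without the block limma called 0, with 7 lower at an unadjusted p under 0.05. Numbered zinc finger genes had 30 rises and 16 falls of 400 tested, and 46 rises and 6 falls after rescaling; their called share was 11.5%, beside 32% over all entries.

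Metabolic and transport genes changed in both directions. Of 26 glycolysis genes 1 rose and 10 fell, and after rescaling 1 rose and 5 fell. Of 39 NRF2 and glutathione genes 4 rose and 11 fell (4 and 7 after rescaling), and of 23 hypoxia response genes 5 rose and 9 fell (5 and 8 after rescaling). The called shares were 42.3% for glycolysis, 38.5% for NRF2 and glutathione and 60.9% for hypoxia, beside 32% over all entries. MITF, a transcription factor of lysosomal and pigment genes, was at 8.32 and 8.10 in siLATS, against 6.70 and 6.35 in siControl (1.69 ± 0.15, SE, adjusted p = 2.25e-06), and of 48 lysosome and autophagy genes 15 rose and 6 fell. CA12, a membrane carbonic anhydrase, fell by 0.99 and HK1, a hexokinase, by 0.62 on the log2 scale. The mitochondrial superoxide dismutase gene SOD2 fell by 0.82, and FADS3, a relative of the fatty acid desaturases, and TM7SF2, a sterol reductase, rose by 1.25 and 1.30. Of 183 solute carriers 38 rose and 35 fell, and after rescaling 48 rose and 25 fell. The called share was 39.9% for the solute carriers and 43.8% for the lysosome and autophagy genes.

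The same siRNAs were given to cells that also received p53 siRNA. The differences of that comparison, siLATS_p53 minus sip53, use none of the siLATS or siControl libraries, although they use the same 2 batches. Its calls are not separate, since a single fit over all 8 libraries gave the spread used in both comparisons. Of the 1299 entries that rose against siControl, 1223 (94.1%) were also higher in sip53 cells, 830 of them called up and 3 of the 1299 called down. Of the 2638 that fell, 2231 (84.6%) were also lower, 877 of the 2638 were called down and 25 called up. Over all entries 67.8% had the same sign, 22.1% were called in sip53 cells, 12.7% up and 9.42% down. Of the entries changed at least 2-fold, 166 of 194 rises and 92 of 117 falls were called in the same direction again. The median difference of the entries that rose was 0.436 in sip53 cells and 0.52 against siControl, and that of the entries that fell was -0.18 in sip53 cells and -0.39 against siControl. Across the 12315 entries the differences correlated with r = 0.719, a description over genes that share libraries and are not independent. In all, 1707 entries were called in the same direction in both comparisons. That number was 299 without the block, and it was 661, 943, 1142 and 1488 without siLATS replicates 1 and 2 and siControl replicates 1 and 2, 1089 and 848 without siLATS_p53 replicates 1 and 2, and 910 and 679 without sip53 replicates 1 and 2.

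**Figure D4:**
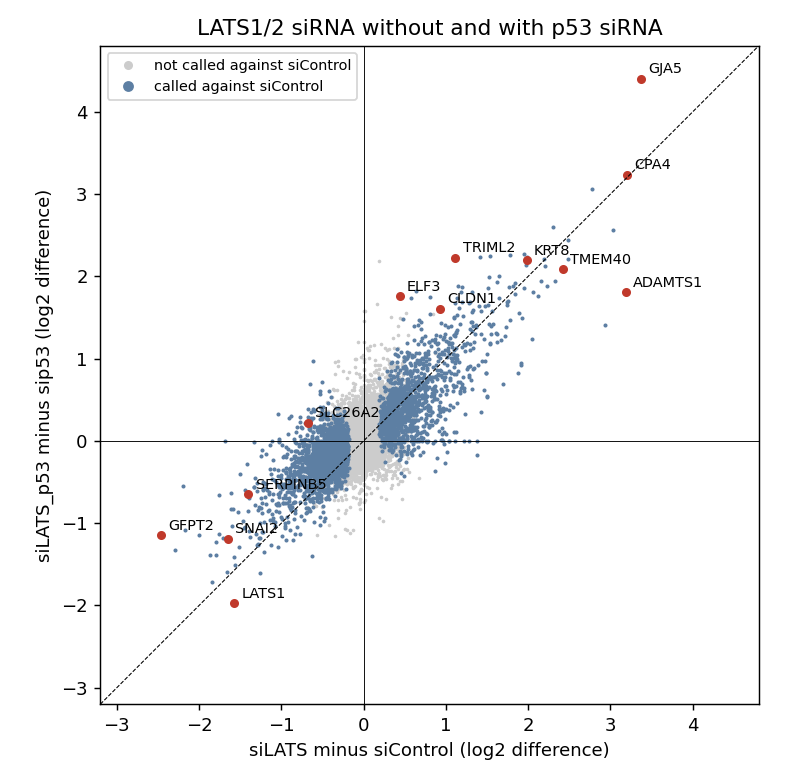
Effect of the LATS1/2 siRNAs without p53 siRNA (horizontal axis, siLATS minus siControl) and with it (vertical axis, siLATS_p53 minus sip53), both as log2 differences, with 1 point per entry. Blue points are called against siControl, grey points are not, red points are named genes and the dashed line marks equal effects; CPA4 lies near it (3.24 with p53 siRNA, 3.20 without), GJA5 above it (4.40 with, 3.37 without) and ADAMTS1 below it (1.81 with, 3.19 without).

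Gene lists can be set side by side in the 2 settings. The mitotic genes had a median of -0.114 with p53 siRNA, where 15 of 75 fell, and of -0.412 without it, where 66 of 75 fell. Over all entries the medians were 0.0126 with and -0.0742 without p53 siRNA, and 9.42% and 21.4% fell. The interaction, a test described below, was called for 3 of the 75 mitotic genes. The medians with and without p53 siRNA were 0.615 and 0.761 for the YAP/TAZ signature, 0.693 and 0.558 for luminal markers and 0.339 and 0.235 for tight junction genes. They were 0.158 with and -0.122 without p53 siRNA for cytosolic ribosomal proteins, where the interaction was called for 6 of 76 genes. In both settings 6 of 10 luminal markers and 12 of 23 tight junction genes rose, where 12.7% of all entries rose with p53 siRNA and 10.5% without it. Whether an effect differed between the 2 settings was tested as an interaction, which was called for 250 entries (2.03%), 216 of them positive (1.75%) and 34 negative (0.276%). Without the batch block limma called 0, with an unadjusted p under 0.05 in 807 entries against 2451 with the block, and with single libraries left out between 0 and 37 were called. These calls were thus few or absent without the block or without any single library.

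The rise of some genes was larger with p53 siRNA. ELF3, an epithelial transcription factor gene, was at 11.73 and 11.39 in siLATS_p53, against 10.19 and 9.41 in sip53, a difference of 1.76. It was at 9.71 and 9.34 in siLATS, against 9.36 and 8.81 in siControl, a difference of 0.44 that was lost without the block (adjusted p = 0.398) and without either siLATS library or siControl replicate 2. The interaction of ELF3 had an adjusted p of 0.00257. TRIML2 differed by 2.23 with p53 siRNA and by 1.11 without it, CLDN1 by 1.61 and 0.92, and GJA5 by 4.40 and 3.37. In the other direction, ADAMTS1 differed by 1.81 and 3.19, MITF by 0.69 and 1.69, and SERPINB13 by 0.82 and 1.49.

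Of the 216 positive interactions 148 were of entries that fell against siControl, where 21.4% of all entries fell. The interaction subtracts the difference against siControl, so a fall there raises it and the excess of falls is partly built in. After rescaling 65 interactions were called in place of 250, so these counts also depended on the scaling. GFPT2 differed by -1.15 with p53 siRNA and by -2.46 without it, EGR1 by -1.13 and -1.76, SERPINB5 by -0.65 and -1.40, and VIM, which encodes vimentin, by -0.30 and -0.80. SOD2 was at 11.30 and 11.01 in siLATS_p53, against 11.39 and 11.16 in sip53, and at 11.20 and 11.06 in siLATS, against 12.02 and 11.89 in siControl. BIRC3, an inhibitor of apoptosis proteins, and ATP2B4, a plasma membrane calcium pump, had the same form, with differences of -0.09 and 0.07 with p53 siRNA and of -0.68 and -0.69 without it. The sulphate transporter gene SLC26A2 differed by 0.22 with p53 siRNA and by -0.68 without it, with an interaction adjusted p of 0.00257; its batches differed by more than 1 on the log2 scale, and its fall against siControl was lost without the block (adjusted p = 0.528).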

How the data were processed

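Polyadenylated RNA of 8 libraries was sequenced after preparation with the TruSeq version 2 kit, per the labels' protocols. The barcoded libraries shared a lane. The kit does not keep strand, so reads of antisense or overlapping genes cannot be told apart. The submitters' processing notes name TopHat, with no version, and the hg19 build. How reads were counted and scaled, and on which annotation, is not stated in the sources used here. The authors' values were read as log2 expression with a floor of 5, set before deposit. Whether the values are scaled by gene length is unknown, so the mean level served only as a filter between genes and no order of levels was read from it. Spacing of the low linear values gave only estimates of depth, since 36.9 to 66.3% of them lay near a whole multiple, and no counts were recovered.

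A single limma fit (version 3.58.1, R 4.3.3) with a trended prior variance covered all 8 libraries, with the batch of cells as a block (3 residual degrees of freedom) and Benjamini-Hochberg adjustment over 12315 entries with a threshold of 0.05. A shared number marks 1 batch of cells, per the labels, and the deviations of such libraries from their group means had correlations of 0.565 to 0.726 in the 6 pairings of groups. The fit without the block (4 residual degrees of freedom) was an alternative; its adjusted p is given beside named genes whose call it changed. The contrasts were siLATS minus siControl, siLATS_p53 minus sip53 and their difference. Lists were described by counts and medians with no set test. The 147 tested entries that repeat a symbol were not named.

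The comparison, the lists and the genes named were chosen with earlier results of these data known. The rule for named genes took the knocked-down genes, readouts of the pathway, the 15 largest rises and falls called in both fits with a mean above the median and groups that did not overlap, up to 4 called members per list, by p, with a difference of at least 0.5, genes at the floor in 1 group, and genes with the strongest interactions. Some further list members were named after their values were seen, and the results of some genes taken by the rule are not reported here. Promoters were matched by symbol to a RefSeq table, and 79.0% of tested symbols had an entry. The alternatives were rescaling each library by its median difference from the mean library, other filters, a pseudocount of 32, no trend, the groups compared alone and each library left out in turn. The procedure was tested on simulated data.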

Additional observations from a re-analysis of the deposited data

Results flagged for a closer look

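A different effect of the LATS1/2 siRNAs with and without p53 siRNA was called for 32 of the named genes. The call was made on the interaction term of the limma fit with the batch block, and none of these was called without the block. Some of the genes were named for their small interaction p, so the 32 is partly set by the choice. Over all entries the interaction was called for 2.03%. The interaction is the difference with p53 siRNA minus the difference without it, on the log2 scale, and each group has 2 libraries. Rises that were larger with p53 siRNA gave interactions of 1.32 for ELF3, 1.11 for TRIML2, 1.03 for GJA5, 0.68 for CLDN1 and 0.47 for SERPINB2. Rises that were smaller or missing with p53 siRNA gave -1.38 for ADAMTS1, -1.0 for MITF, -0.66 for SERPINB13, -0.63 for DRAM1, -0.46 for COL12A1 and -0.45 for FAT1.

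Falls that were smaller, missing or turned with p53 siRNA gave 1.32 for GFPT2, 1.08 for GPR64, 0.90 for SLC26A2, 0.84 for TGM1, 0.75 for ATP2B4, 0.75 for SERPINB5 and 0.72 for NDUFB6. They gave 0.70 for SOD2, 0.62 for EGR1, 0.61 for SLC25A15, 0.59 for BIRC3, 0.57 for CEBPB, 0.56 for METTL9, 0.55 for NCAPG, 0.51 for VIM, 0.49 for MCL1, 0.47 for CDC25B and 0.47 for SEMA4B. The metallothionein genes gave 0.69 for MT1E and 0.56 for MT2A, with reads that near-identical copies can share. CHRNA9 gave 1.11, but it was at the floor in siLATS_p53, sip53 and siLATS and above it only in siControl.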

How the results depend on the processing

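The count of called entries, 3937, was 948 with no replicate block, 787 with no replicate block and rescaling, 899 with the siLATS and siControl libraries alone, and 1040 to 3813 with each library left out. The count changed at least 2-fold, 311, was 203 with no replicate block and 199 with a pseudocount of 32. The 1707 entries called the same way in both LATS1/2 comparisons were 299 with no replicate block, 302 with rescaling as well, and 661 to 1488 with each library left out. The 250 interactions were 525 with entries above the floor in all libraries, 23 with those above it in at least 1, 2 with no trend, 65 after rescaling, 0 with no replicate block, with or without rescaling, and 0 to 37 with each library left out. Of 207 genes examined, all called with the block, 157 were called without it, 176 passed whichever library was left out and 0 reversed under the 16 settings; the cause of lost calls was not tested. Some of the genes examined were chosen because they were called in both fits, so these counts do not stand for all called entries. Over all entries, 948 of the 3937 called were also called without the block. LATS1 and LATS2 kept their calls under each setting. Where a group keeps 1 library, it is assumed to vary like the others. Depth was only estimated, and the floor stood for about 14.6 to 50 reads, which limits statements on low genes.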
